A study of Danio rerio with 16 samples.

Results

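Collagens and extracellular matrix glycoproteins were followed in single-nucleus RNA sequencing of adult zebrafish hearts. The set was a list of 40 gene symbols, and 39 of them had a row in every gene table, out of 24753 symbols that the tables shared. fbn1, the remaining symbol, was not analysed here. The list was divided into 9 fibrillar collagen genes, 5 genes of the beaded filament collagen VI and the fibril-associated collagen XII, 15 basement membrane genes, 9 genes of the provisional and matricellular matrix, and fbn2b, which encodes a fibrillin of elastic microfibrils.

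The study compared hearts homozygous for the cited4a allele pt38a (pt38a/pt38a, called mutant below) with wild-type (WT) hearts. In each genotype, hearts taken 3 days after surgery that removed about 20% of the ventricle (3 dpa) were set against uninjured hearts (UI). The labels list 16 samples, 4 for each of the 4 groups, but each group has a single count matrix, and nothing in it ties a barcode to a sample. Each group was therefore 1 library, there is no replicate check on any difference, and no p-value is given. Intervals in parentheses are 95% intervals that cover counting error only. The labels give no age, sex or strain of the fish, and they do not say how many hearts were pooled.

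Fibrillar collagens (types I, V and XI) are triple helices that assemble into the tensile fibres of connective tissue and scar. Basement membranes are sheets of laminin and collagen IV, joined by nidogen and perlecan, that underlie endothelium and epicardium and surround each cardiomyocyte and mural cell. Fibronectin, periostin, tenascin-C, versican and thrombospondin make up a provisional matrix that is laid down early in a wound. The zebrafish heart replaces amputated ventricle, and its epicardium and fibroblasts are known sources of collagen and fibronectin during that process.

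Barcodes were accepted as nuclei when they held at least 500 unique molecular identifiers (UMIs, each a counted RNA molecule), with no more than 5% of them mitochondrial. This left 9140 nuclei labelled mutant 3 dpa, 9932 labelled mutant UI, 10394 labelled WT 3 dpa and 8178 labelled WT UI. Median UMIs per nucleus were 950.5 in mutant 3 dpa and 973 in mutant UI, and 1052 in WT 3 dpa and 1725 in WT UI. Levels are CPM, a gene's UMI count scaled to a fixed total of UMIs on the shared genes. cited4a itself was counted at 370 CPM in mutant 3 dpa and 32.6 CPM in mutant UI, and at 53.7 CPM in WT 3 dpa and 153 CPM in WT UI, so its RNA does not separate the genotypes, and its difference between 3 dpa and UI ran in opposite directions in them. The same opposite directions are seen below in most of the matrix genes, and every direction rests on the matrices' labels. An exchange of the labels of the mutant 3 dpa and mutant UI matrices would turn every mutant direction, and this was not tested. The gene table and the set of barcodes also split by genotype: the tables held 27758 genes in both mutant libraries and 25432 in both WT libraries, no barcode was shared between genotypes, and 133 were shared by the mutant pair and 136 by the WT pair. Genotype and gene table cannot be told apart.

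The 39 genes together held 0.240% of UMIs in mutant 3 dpa and 0.509% in mutant UI, and 0.668% in WT 3 dpa and 0.214% in WT UI. A gene was counted as past the fold when its log2 ratio of CPM + 10 was at or beyond 1 in either direction. With 10 CPM added to both sides, ratios of genes at low levels come out smaller than they are. Between mutant 3 dpa and mutant UI, 0 of the 39 were higher past the fold, where 1.28% of all genes were, and 18 were lower, where 3.30% of all genes were. Between WT 3 dpa and WT UI, 23 were higher, where 2.24% of all genes were, and 0 were lower, where 0.489% of all genes were. These shares include genes with few UMIs. Among genes with 50 or more UMIs over the compared pair of libraries, 318 of 14761 were higher and 817 lower in mutant 3 dpa. In WT 3 dpa 555 of 17375 such genes were higher and 121 lower. The median log2 ratio of the 39 was -0.90 in the mutant, beside -0.05 over all genes, and 1.32 in WT, beside 0.10 over all genes. In 16 of the 39 genes both applied, higher in WT 3 dpa and lower in mutant 3 dpa, as in 0.893% of all genes, and 0 of the 39 ran the other way in both, as 0.0566% of all genes did. In sums over a whole library, fewer nuclei of a type and less RNA per nucleus cannot be told apart.

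The fibrillar collagens were high in the libraries labelled mutant UI and WT 3 dpa and low in the other pair. The median mitochondrial share of UMIs over all barcodes also differed, at 1.70% in mutant 3 dpa and 5.20% in mutant UI, and at 2.06% in WT 3 dpa and 0.576% in WT UI, and its part in the result was not tested. The summed fibrillar level was 200.3 CPM in mutant 3 dpa and 1466 CPM in mutant UI, 7.32-fold (6.99 to 7.67) lower in mutant 3 dpa. The sum was 2188 CPM in WT 3 dpa and 226 CPM in WT UI, 9.70-fold (9.37 to 10.0) higher in WT 3 dpa. Of the 9 genes, 8 were higher past the fold in WT 3 dpa than in WT UI, and the same 8 were lower past the fold in mutant 3 dpa than in mutant UI. The exception in both was col5a2b.

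Type I collagen, the main collagen of scar, is encoded in zebrafish by col1a1a, col1a1b and col1a2. col1a1a stood at 26.0 CPM in mutant 3 dpa and 208 CPM in mutant UI, and at 279.7 CPM in WT 3 dpa and 17.6 CPM in WT UI. col1a1b stood at 27.7 CPM in mutant 3 dpa and 291 CPM in mutant UI, and at 388 CPM in WT 3 dpa and 29.9 CPM in WT UI. col1a2, the second chain of the triple helix, stood at 29.5 CPM in mutant 3 dpa and 253 CPM in mutant UI, and at 311 CPM in WT 3 dpa and 28.3 CPM in WT UI. All 3 genes took nearly the same pattern, with log2 ratios of 3.39, 3.32 and 3.07 in WT and of -2.60, -2.997 and -2.74 in the mutant.

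Type V collagen sits in the core of collagen I fibrils and limits their diameter. Its chain gene col5a1 had the most UMIs of the fibrillar group in each library, with 55.6 CPM in mutant 3 dpa and 416 CPM in mutant UI, and 647 CPM in WT 3 dpa and 79.8 CPM in WT UI. The log2 ratio was -2.70 (-2.81 to -2.59) in the mutant and 2.87 (2.80 to 2.94) in WT. col5a2a was counted at 35.4 CPM in mutant 3 dpa and 128 CPM in mutant UI, and at 246.5 CPM in WT 3 dpa and 47.7 CPM in WT UI. col5a3a was counted at 10.8 CPM in mutant 3 dpa and 55.7 CPM in mutant UI, and at 91.5 CPM in WT 3 dpa and 9.18 CPM in WT UI. The second copy col5a2b held 18 UMIs in mutant 3 dpa and 20 in mutant UI, and 93 in WT 3 dpa and 24 in WT UI. It stayed at or under 5.02 CPM throughout, a level at which the fold threshold could not be reached.

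Type XI collagen, a minor fibrillar collagen best known from cartilage, followed the same pattern from lower levels. col11a1a was counted at 2.71 CPM in mutant 3 dpa and 36.2 CPM in mutant UI, and at 84.0 CPM in WT 3 dpa and 5.85 CPM in WT UI. col11a1b was counted at 10.8 CPM in mutant 3 dpa and 74.9 CPM in mutant UI, and at 135 CPM in WT 3 dpa and 5.79 CPM in WT UI. On the linear scale col11a1b was 23.3-fold (18.9 to 28.9) higher in WT 3 dpa than in WT UI, and 6.92-fold lower in mutant 3 dpa than in mutant UI.

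**Figure D1:**
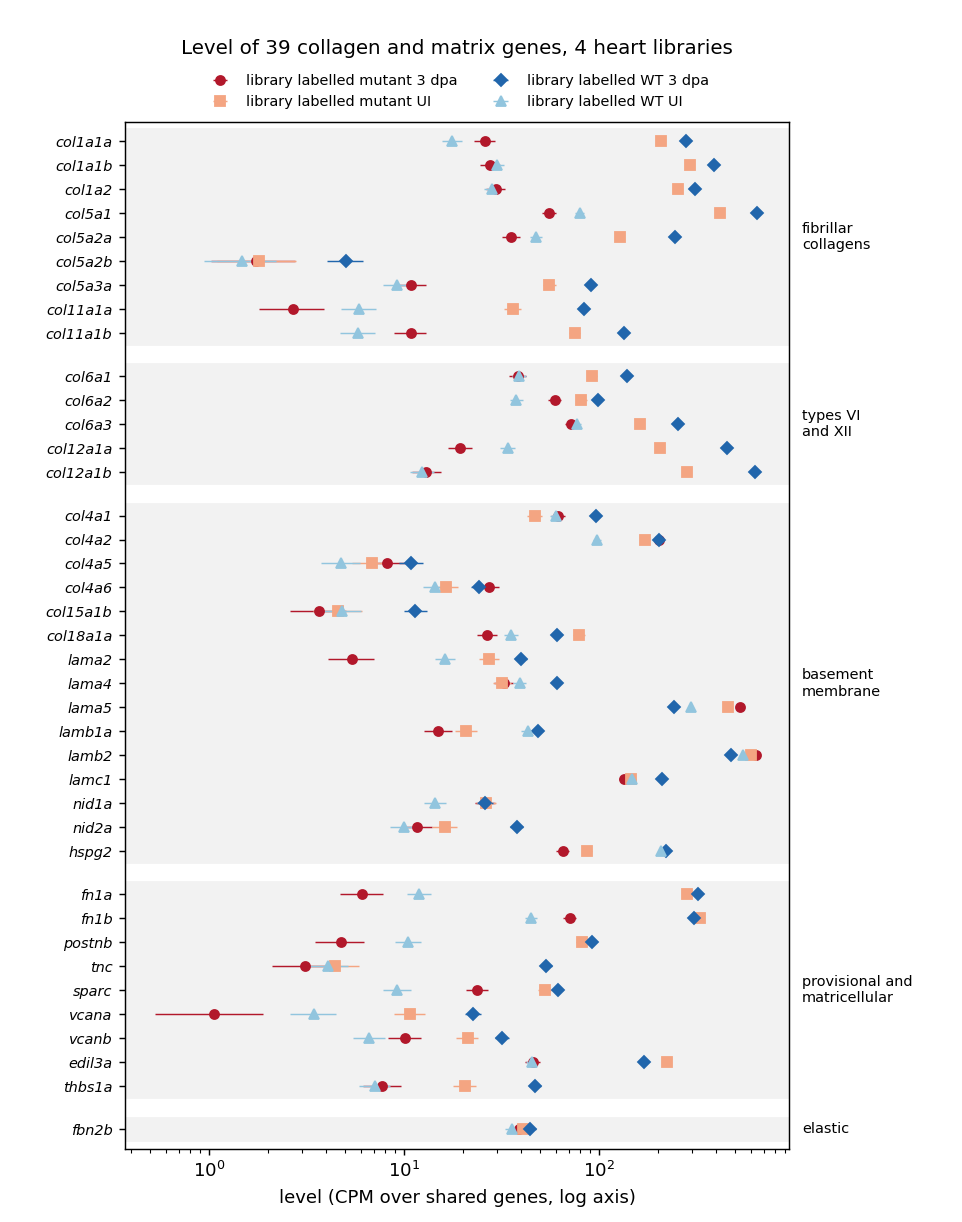
Level of each of the 39 genes in the 4 libraries, as CPM over the shared genes on a log axis; bars are 95% counting intervals and grey bands mark the 5 groups. In the fibrillar group the points for mutant UI and WT 3 dpa lie to the right of the points for mutant 3 dpa and WT UI, clearly so for all but col5a2b, while basement membrane genes follow no common order of the libraries.

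Collagen XII binds the surface of collagen I fibrils, and its copy col12a1b gave the widest difference of the set in WT. col12a1b stood at 13.0 CPM in mutant 3 dpa and 281 CPM in mutant UI, and at 630 CPM in WT 3 dpa and 12.4 CPM in WT UI. Its log2 ratio between WT 3 dpa and WT UI, 4.83 (4.72 to 4.95), was the largest of all 24753 genes, and its ratio between mutant 3 dpa and WT 3 dpa, -4.79, was the smallest of all. col12a1a stood at 19.3 CPM in mutant 3 dpa and 205 CPM in mutant UI, and at 451 CPM in WT 3 dpa and 34.0 CPM in WT UI.

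Collagen VI forms beaded filaments around cells, and its chains moved less. col6a1 was at 38.4 CPM in mutant 3 dpa and 91.9 CPM in mutant UI, and at 139 CPM in WT 3 dpa and 38.9 CPM in WT UI. col6a3, summed over a pair of gene identifiers, was at 72.1 CPM in mutant 3 dpa and 162 CPM in mutant UI, and at 254 CPM in WT 3 dpa and 76.8 CPM in WT UI. col6a2 was at 59.1 CPM in mutant 3 dpa and 81.3 CPM in mutant UI, and at 99.2 CPM in WT 3 dpa and 37.7 CPM in WT UI. All 5 collagen VI and XII genes were higher past the fold in WT 3 dpa, with log2 ratios between 1.195 and 4.83, and 4 were lower past the fold in mutant 3 dpa. The mutant log2 ratio of col6a2 was -0.40 (-0.53 to -0.27).

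The provisional and matricellular group summed to 173 CPM in mutant 3 dpa and 1022 CPM in mutant UI, and to 1108 CPM in WT 3 dpa and 143 CPM in WT UI. All 9 genes were higher past the fold in WT 3 dpa than in WT UI. In the mutant, 4 of the 9 were lower past the fold in 3 dpa, namely fn1a, fn1b, postnb and edil3a, and the remaining 5 had log2 ratios between -0.91 and -0.14.

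Fibronectin is the adhesive glycoprotein of the early wound, and zebrafish carry a pair of copies of its gene. fn1a was counted at 6.09 CPM in mutant 3 dpa and 282 CPM in mutant UI, and at 323 CPM in WT 3 dpa and 12.01 CPM in WT UI. Its log2 ratio of -4.18 (-4.32 to -4.04) in the mutant was the lowest of the 39, and its ratio of 3.92 (3.80 to 4.04) in WT was the second highest. fn1b was counted at 70.7 CPM in mutant 3 dpa and 328 CPM in mutant UI, and at 306 CPM in WT 3 dpa and 44.9 CPM in WT UI. Both copies were high in mutant UI and WT 3 dpa, but in the low libraries fn1b kept a higher part of that level than fn1a.

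Periostin, encoded by postnb, is a matricellular protein of activated fibroblasts. postnb was at 4.74 CPM in mutant 3 dpa and 81.4 CPM in mutant UI, and at 91.8 CPM in WT 3 dpa and 10.5 CPM in WT UI. edil3a encodes an integrin-binding matrix protein and was at 45.7 CPM in mutant 3 dpa and 222 CPM in mutant UI, and at 169.9 CPM in WT 3 dpa and 45.3 CPM in WT UI. edil3a and fn1b were the 2 genes of this group with a higher level in mutant UI than in WT 3 dpa. sparc, whose product binds collagen and acts in its deposition, was at 23.8 CPM in mutant 3 dpa and 52.9 CPM in mutant UI, and at 61.8 CPM in WT 3 dpa and 9.24 CPM in WT UI.

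Tenascin-C, a glycoprotein that marks wound borders, did not follow the other members of this group in mutant UI. tnc was at 3.09 CPM in mutant 3 dpa and 4.43 CPM in mutant UI, and at 53.8 CPM in WT 3 dpa and 4.07 CPM in WT UI. It was 13.2-fold (10.3 to 17.2) higher in WT 3 dpa than in WT UI, while mutant UI and WT UI differed by a log2 ratio of 0.04 (-0.12 to 0.20). In each of the other genes of this group mutant UI was well above both low libraries.

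Versican, a large proteoglycan that binds hyaluronan, and thrombospondin-1 were lower in CPM. vcana was at 1.06 CPM in mutant 3 dpa and 10.8 CPM in mutant UI, and at 22.6 CPM in WT 3 dpa and 3.45 CPM in WT UI. vcanb was at 10.1 CPM in mutant 3 dpa and 21.2 CPM in mutant UI, and at 31.7 CPM in WT 3 dpa and 6.65 CPM in WT UI. thbs1a was at 7.73 CPM in mutant 3 dpa and 20.5 CPM in mutant UI, and at 47.0 CPM in WT 3 dpa and 7.08 CPM in WT UI. In all 3 genes WT 3 dpa was highest and mutant UI next, as in the fibrillar sum.

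The 15 basement membrane genes summed to similar levels in the 4 libraries, with 1789 CPM in mutant 3 dpa and 1737 CPM in mutant UI, and 1770 CPM in WT 3 dpa and 1537 CPM in WT UI. The ratio was 1.03 (1.01 to 1.05) in the mutant and 1.15 (1.13 to 1.17) in WT. TMM scaling, which sets aside the genes that differ most, gave a log2 ratio of 0.45 in the mutant and turned the WT ratio to -0.33, so the direction of the WT sum depends on the scaling. Gene by gene, 13 of the 15 had a log2 ratio above 0 in WT, with a median of 0.53, beside 0.10 over all genes. In the mutant 7 were above 0 and 8 below, with a median of -0.01, beside -0.05 over all genes. Under TMM lamb1a, lamc1 and hspg2 turned sign in WT, and col15a1b, lamc1 and nid1a in the mutant. In WT, 1 of the 15 was higher past the fold, nid2a, which encodes nidogen-2, a linker of laminin and collagen IV. In the mutant, 2 were lower past the fold, col18a1a and lama2.

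lamb2 and lama5 carried the largest parts of this sum. lamb2, a laminin beta chain, was at 640.1 CPM in mutant 3 dpa and 599 CPM in mutant UI, and at 477 CPM in WT 3 dpa and 545 CPM in WT UI. lama5, the alpha chain of laminin-511, was at 529 CPM in mutant 3 dpa and 456 CPM in mutant UI, and at 243 CPM in WT 3 dpa and 296 CPM in WT UI. hspg2, which encodes the proteoglycan perlecan, was at 65.0 CPM in mutant 3 dpa and 86.9 CPM in mutant UI, and at 221 CPM in WT 3 dpa and 208 CPM in WT UI. On the CPM scale lamb2 and lama5 were higher, and hspg2 lower, in both mutant libraries than in either WT library. For lamb2 the order of mutant UI and WT UI depends on the scaling. TMM moves genes at high levels by a log2 of -0.39 between these libraries, more than the lamb2 gap.

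Collagen IV, the network-forming collagen of basement membranes, is built here from gene pairs that lie next to each other in the assembly GRCz12tu, col4a1 with col4a2 and col4a5 with col4a6. col4a2 was at 203 CPM in mutant 3 dpa and 173 CPM in mutant UI, and at 202 CPM in WT 3 dpa and 97.5 CPM in WT UI. col4a1 was at 61.7 CPM in mutant 3 dpa and 46.8 CPM in mutant UI, and at 97.0 CPM in WT 3 dpa and 59.9 CPM in WT UI. Both had positive log2 ratios in both genotypes, 0.22 and 0.34 in the mutant and 0.98 and 0.61 in WT, and neither was past the fold. col4a5 reached at most 10.9 CPM and col4a6 at most 27.3 CPM.

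Of the remaining basement membrane genes, col18a1a, whose product releases the fragment endostatin, was at 26.8 CPM in mutant 3 dpa and 79.0 CPM in mutant UI, and at 60.7 CPM in WT 3 dpa and 35.5 CPM in WT UI. lama2, the laminin alpha chain of muscle, was at 5.41 CPM in mutant 3 dpa and 27.3 CPM in mutant UI, and at 39.95 CPM in WT 3 dpa and 16.3 CPM in WT UI. lamc1, the common laminin gamma chain, was at 134 CPM in mutant 3 dpa and 147 CPM in mutant UI, and at 209.5 CPM in WT 3 dpa and 147 CPM in WT UI. The laminin chains lama4 and lamb1a, nidogen-1 (nid1a), and col15a1b lay between 3.67 and 61.0 CPM. nid2a was at 11.7 CPM in mutant 3 dpa and 16.2 CPM in mutant UI, and at 37.8 CPM in WT 3 dpa and 9.98 CPM in WT UI. fbn2b, outside the basement membrane group, was at 39.05 CPM in mutant 3 dpa and 40.9 CPM in mutant UI, and at 44.3 CPM in WT 3 dpa and 35.9 CPM in WT UI, a spread that turned sign with the scaling in both genotypes.

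**Figure D2:**
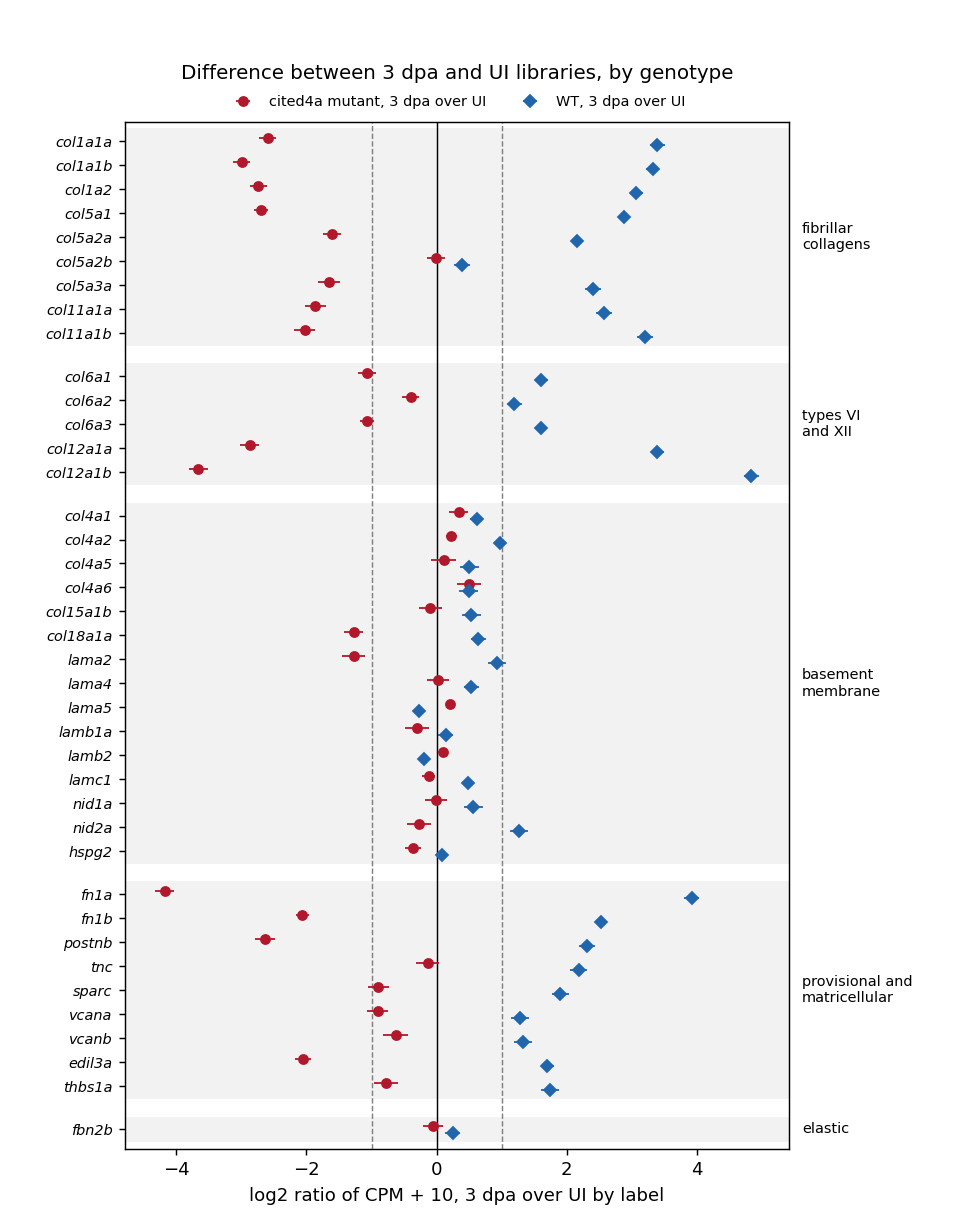
Log2 ratio of CPM + 10 between the libraries labelled 3 dpa and UI for each of the 39 genes, in the mutant (circles) and in WT (diamonds), with 95% counting intervals; dashed lines mark a log2 ratio of 1 in either direction. Fibrillar genes other than col5a2b, type XII and fibronectin genes lie left of the lower line in the mutant and right of the upper line in WT, and 14 of the 15 basement membrane genes lie inside the upper line in WT.

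The libraries were also compared between genotypes by label. At 3 dpa, 1 of the 39 was higher past the fold in the mutant, lama5, where 1.98% of all genes were, and 25 were lower, where 4.86% of all genes were. In UI, 16 were higher past the fold in the mutant, where 4.37% of all genes were, and 1 was lower, hspg2, where 1.77% of all genes were. The fibrillar sum was 10.9-fold lower in mutant 3 dpa than in WT 3 dpa, and 6.50-fold (6.27 to 6.74) higher in mutant UI than in WT UI. These comparisons share libraries with those between 3 dpa and UI and are not independent of them.

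Markers of several cell types also differed between the libraries. The 7 fibroblast or epicardial markers (tbx18, tcf21, wt1a, wt1b, aldh1a2, pdgfra and dpt), none of which was at 0 in any library, summed to 63.3 CPM in mutant 3 dpa and 271 CPM in mutant UI, and to 245 CPM in WT 3 dpa and 181 CPM in WT UI. The 11 macrophage markers, none at 0, summed to 112 CPM in mutant 3 dpa and 715 CPM in mutant UI, and to 594 CPM in WT 3 dpa and 378 CPM in WT UI, and the 10 erythrocyte markers, none at 0, to 681 CPM in mutant 3 dpa and 5006 CPM in mutant UI, and to 2599 CPM in WT 3 dpa and 769 CPM in WT UI. The 7 thrombocyte markers summed to 153 CPM in mutant 3 dpa and 259 CPM in mutant UI, and to 300.03 CPM in WT 3 dpa and 89.5 CPM in WT UI. The 8 neutrophil markers, with 1 at 0 in mutant 3 dpa, summed to 23.97 CPM in mutant 3 dpa and 87.2 CPM in mutant UI, and to 58.1 CPM in WT 3 dpa and 38.6 CPM in WT UI. All of these lists were higher in mutant UI and WT 3 dpa than in the other pair, whereas the 12 cardiomyocyte markers summed to 50738 CPM in mutant 3 dpa and 36379 CPM in mutant UI, and to 53071 CPM in WT 3 dpa and 79252 CPM in WT UI. Endothelial or endocardial markers (10) summed to 749 CPM in mutant 3 dpa and 539 CPM in mutant UI, and to 1176 CPM in WT 3 dpa and 1348 CPM in WT UI. Mural markers (9, with 1 at 0 in mutant UI) summed to 664 and 849 CPM in the same mutant libraries, and to 1391 and 1685 CPM in the same WT libraries. Neither list was higher in mutant UI and WT 3 dpa than in the other pair, whereas the T or NK lymphocyte list was. That list summed to 160 and 181 CPM in the mutant and 203 and 125 CPM in WT. The part of these markers in the result was not tested.

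The copies of duplicated genes did not keep a fixed proportion. fn1a held 7.92% (6.14 to 10.0) of the UMIs of the fibronectin pair in mutant 3 dpa and 46.2% (45.0 to 47.4) in mutant UI, and 51.4% (50.5 to 52.3) in WT 3 dpa and 21.1% (18.5 to 23.9) in WT UI. Its share was thus larger in the libraries in which the pair was high. col12a1a ran the other way, with 59.7% (54.2 to 65.0) of the collagen XII pair in mutant 3 dpa and 42.1% (40.8 to 43.4) in mutant UI, and 41.7% (41.1 to 42.4) in WT 3 dpa and 73.2% (69.9 to 76.3) in WT UI. vcana held 9.48% (4.83 to 16.3) of the versican pair in mutant 3 dpa, and between 33.7% and 41.6% in the remaining libraries.

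The type I and type V copies were steadier. col1a1a held 48.4% (44.2 to 52.6) of its pair in mutant 3 dpa and 41.7% (40.4 to 43.0) in mutant UI, and 41.9% (41.0 to 42.7) in WT 3 dpa and 37.0% (33.6 to 40.6) in WT UI. col5a2a held at least 95.3% of its pair in every library. col11a1a held 20.0% (13.7 to 27.6) in mutant 3 dpa and 32.6% (29.96 to 35.3) in mutant UI, and 38.4% (36.9 to 39.9) in WT 3 dpa and 50.3% (42.9 to 57.6) in WT UI. Reads that match both copies of a pair could be lost or split in the authors' counting, which cannot be checked from counts, and fn1b and postnb lie beside the unrelated genes atic and nbeab in GRCz12tu.

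**Figure D3:**
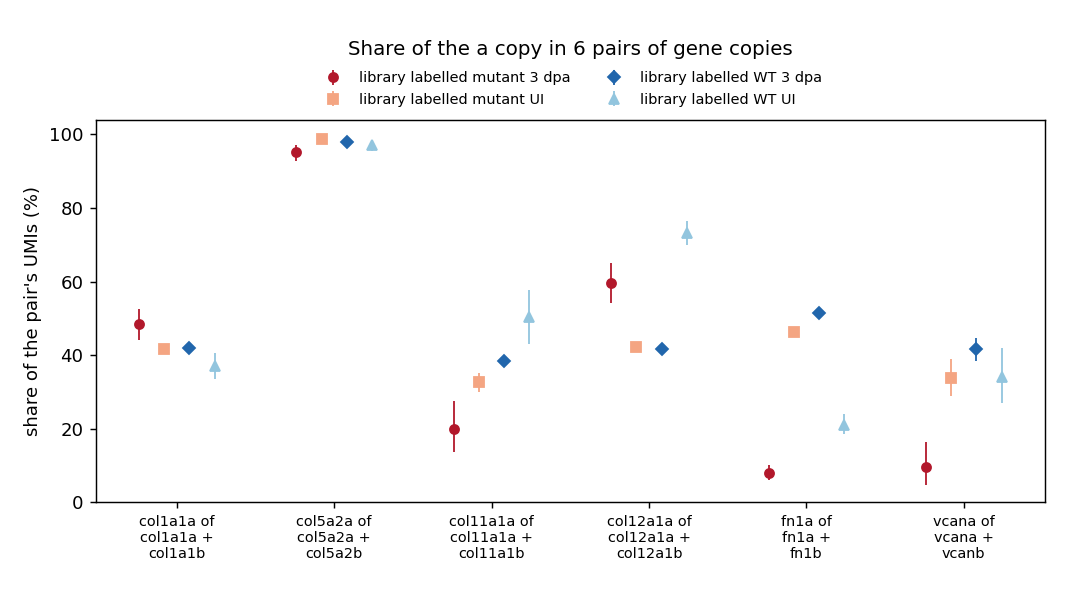
Share of a pair's UMIs held by the copy named first, for 6 pairs of duplicated genes in the 4 libraries, in percent with 95% Clopper-Pearson intervals. The fn1a share is 7.92% in mutant 3 dpa and 51.4% in WT 3 dpa, while the col5a2a share is above 95% in every library.

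To see which nuclei held the matrix RNA, nuclei were sorted by 5 marker genes outside the list. Nuclei with a UMI of tbx18 or tcf21, transcription factors of epicardium and fibroblasts, and none of the other markers numbered 85 in mutant 3 dpa and 368 in mutant UI, and 290 in WT 3 dpa and 177 in WT UI. The other classes were defined in the same way by notch3 (mural cells), flt1 (endothelium) and csf1ra (macrophages), and between 68.5% and 94.0% of nuclei in a library had none of the 5 markers. The flt1 class numbered 176 nuclei in mutant 3 dpa and 76 in mutant UI, and 1264 in WT 3 dpa and 1458 in WT UI. An endothelial or endocardial-like cluster described below held 1666 nuclei of mutant 3 dpa, so most of those were outside the flt1 class. Beyond tbx18 and tcf21, which define the class, the other 5 fibroblast or epicardial markers were also detected in the tbx18 or tcf21 nuclei of every library. Cardiomyocyte markers were detected in all classes too, with a sum of at least 24573 CPM in the tbx18 or tcf21 nuclei. Whether this was RNA of other cells, or came from cardiomyocytes that held a UMI of a class marker, was not tested.

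The fibrillar genes summed to 1229 CPM (1042 to 1440) in the tbx18 or tcf21 nuclei of mutant 3 dpa and 5702 CPM (5488 to 5921) in those of mutant UI, and to 8885 CPM (8648 to 9127) in those of WT 3 dpa and 1065 CPM (952 to 1188) in those of WT UI. In nuclei with no marker the sums were 178 CPM in mutant 3 dpa and 1223 CPM in mutant UI, and 1688 CPM in WT 3 dpa and 157 CPM in WT UI. The tbx18 or tcf21 nuclei were thus 4.66-fold to 6.92-fold above the nuclei with no marker in each library. The provisional group was 5.36-fold to 12.7-fold above, and the basement membrane group 1.48-fold to 1.79-fold above.

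Single genes were compared between these nuclei and those with no marker. In all 4 libraries, 16 of the 39 genes were at least 2-fold higher with a lower interval bound above 1: 6 fibrillar genes (col1a1a, col1a1b, col1a2, col5a1, col5a2a and col5a3a), col6a1, col6a2, col6a3, lamc1, fn1a, fn1b, postnb, sparc, edil3a and thbs1a. Of all genes, 0.707% passed the same rule. postnb was 36.2-fold (17.7 to 70.3) higher in mutant 3 dpa and 6.63-fold (5.63 to 7.79) in mutant UI, and 7.18-fold (6.26 to 8.22) in WT 3 dpa and 25.2-fold (17.4 to 36.3) in WT UI. edil3a was between 8.24-fold and 17.7-fold higher. By the same rule 1 gene stood out in flt1 nuclei, hspg2, which was between 2.60-fold and 4.30-fold higher there, beside 0.501% of all genes. In notch3 nuclei 0 did, beside 0.263% of all genes, and in csf1ra nuclei 0 did, beside 1.13%. fn1a was nonetheless higher in csf1ra nuclei than in nuclei with no marker in each library, with few UMIs in mutant 3 dpa. In WT UI its level in csf1ra nuclei was also above that in tbx18 or tcf21 nuclei. The fn1a values of the csf1ra nuclei are given under the other observations.

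**Figure D4:**
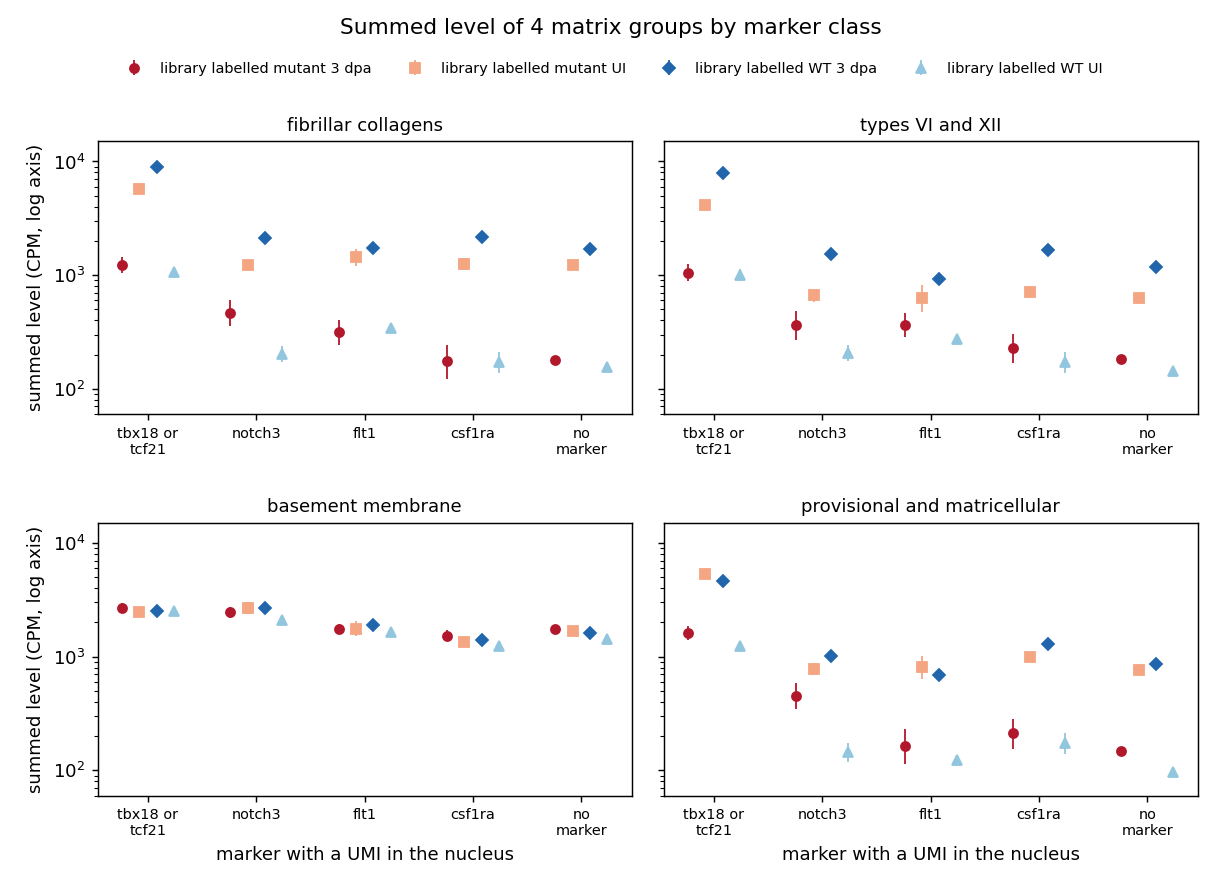
Summed level of 4 matrix groups, in CPM on a log axis, in nuclei sorted by marker gene, for the 4 libraries; bars are 95% Poisson intervals. Fibrillar levels in the tbx18 or tcf21 nuclei run between 1065 and 8885 CPM and exceed those of every other class in the same library, and the basement membrane levels of all 5 classes lie between 1249 and 2703 CPM.

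The difference between 3 dpa and UI was present in every marker class. In csf1ra nuclei the fibrillar level was 0.981-fold to 1.27-fold that of nuclei with no marker in the same library. Whether the cells of each class expressed these genes themselves was not tested. The fibrillar sum was 2.60-fold to 7.24-fold lower in mutant 3 dpa and 5.09-fold to 12.6-fold higher in WT 3 dpa over the 5 classes, and its size in the tbx18 or tcf21 nuclei lay inside both ranges. In the WT nuclei of that class, 24 of the 39 genes were higher past the fold in 3 dpa, where 6.24% of all genes were, and 0 were lower, where 1.77% of all genes were. In the mutant, 1 was higher, col4a2, where 3.84% of all genes were, and 21 were lower, where 11.8% of all genes were. Some of these counts rest on few UMIs: col11a1a, col4a5 and vcana had 0 UMIs in mutant 3 dpa and col11a1b 0 in WT UI. In this class the fibrillar sum was 4.64-fold (3.94 to 5.50) lower in mutant 3 dpa and 8.34-fold (7.45 to 9.36) higher in WT 3 dpa, and the basement membrane ratio was 1.08 (0.949 to 1.22) in the mutant and 0.997 (0.914 to 1.09) in WT. fn1a was at 56.2 CPM in these nuclei of mutant 3 dpa and 1070.4 CPM in those of mutant UI, and at 1317 CPM in those of WT 3 dpa and 29.7 CPM in those of WT UI. col12a1b had 1 UMI there in mutant 3 dpa and 741 in mutant UI, and 2158 in WT 3 dpa and 8 in WT UI.

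Most fibrillar RNA was counted in nuclei outside the tbx18 or tcf21 class in every library. The class held between 7.38% (mutant 3 dpa) and 16.6% (mutant UI) of a library's fibrillar UMIs. Nuclei with no marker held between 44.9% (WT UI) and 82.7% (mutant 3 dpa) of them. With each nucleus thinned to 500 UMIs, 36.5% (26.3 to 47.6) of tbx18 or tcf21 nuclei in mutant 3 dpa and 64.1% (59.0 to 69.0) in mutant UI held a fibrillar collagen UMI, and 72.4% (66.9 to 77.5) in WT 3 dpa and 40.7% (33.4 to 48.3) in WT UI. In csf1ra nuclei the shares were 9.14% in mutant 3 dpa and 38.04% in mutant UI, and 48.3% in WT 3 dpa and 9.17% in WT UI. The median depths of the 2 classes were 1260 and 892 UMIs in mutant 3 dpa and 1106 and 920 UMIs in mutant UI, and 1367 and 1152.5 UMIs in WT 3 dpa and 1383 and 1010 UMIs in WT UI. Nuclei with no marker had shares of 8.06% in mutant 3 dpa and 37.0% in mutant UI, and of 48.3% in WT 3 dpa and 9.80% in WT UI, near those of the csf1ra nuclei. Shares at this level are not read as expression, and their source was not tested. In notch3 nuclei the shares were 18.8% in mutant 3 dpa and 39.5% in mutant UI, and 46.9% in WT 3 dpa and 15.2% in WT UI, and in flt1 nuclei 11.9% in mutant 3 dpa and 39.5% in mutant UI, and 52.9% in WT 3 dpa and 19.6% in WT UI. Before thinning, the tbx18 or tcf21 shares were 50.6% in mutant 3 dpa and 76.6% in mutant UI, and 87.2% in WT 3 dpa and 58.8% in WT UI.

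Nuclei were then clustered with the 39 genes left out. All 7 fibroblast or epicardial markers were raised in 1 cluster, called fibroblast or epicardial-like, whose leading genes included wt1a and tbx18 together with p3h2, plod2 and thbs2b, which are matrix genes of the further lists described below. It held 156 nuclei of mutant 3 dpa and 505 of mutant UI, and 512 of WT 3 dpa and 217 of WT UI, and its share of the nuclei kept was 1.71% in mutant 3 dpa and 5.08% in mutant UI, and 4.93% in WT 3 dpa and 2.65% in WT UI. Of its nuclei, between 23.8% and 44.2% were also in the tbx18 or tcf21 class. Of the nuclei of that class, between 42.1% and 54.2% were in the cluster. The cluster held 23.2% of all fibrillar UMIs in mutant 3 dpa and 40.3% in mutant UI, and 48.8% in WT 3 dpa and 16.3% in WT UI. For the collagen VI and XII genes the cluster held 19.9% in mutant 3 dpa and 53.0% in mutant UI, and 62.6% in WT 3 dpa and 16.9% in WT UI. For the basement membrane genes it held between 4.02% and 11.6%.

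Inside this cluster the fibrillar sum was 2646 CPM in mutant 3 dpa and 9932 CPM in mutant UI, and 16794 CPM in WT 3 dpa and 1974 CPM in WT UI. col12a1b was at 16.5 CPM in mutant 3 dpa and 3094 CPM in mutant UI, and at 7072 CPM in WT 3 dpa and 23.2 CPM in WT UI. fn1a was at 93.5 CPM in mutant 3 dpa and 1924 CPM in mutant UI, and at 3021 CPM in WT 3 dpa and 56.3 CPM in WT UI. Both genes had the pattern of the whole libraries within this cluster. Whether the cluster's make-up was the same in each library was not tested. tnc was at 27.5 CPM in mutant 3 dpa and 27.4 CPM in mutant UI, and at 580.4 CPM in WT 3 dpa and 29.8 CPM in WT UI, again high only in WT 3 dpa.

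The basement membrane genes of the cluster did not move as a group. col4a2 was at 946 CPM in mutant 3 dpa and 292 CPM in mutant UI, and at 277 CPM in WT 3 dpa and 282 CPM in WT UI. col4a1 was at 242 CPM in mutant 3 dpa and 76.0 CPM in mutant UI, and at 139 CPM in WT 3 dpa and 245 CPM in WT UI. lama5 was at 979 CPM in mutant 3 dpa and 558 CPM in mutant UI, and at 397 CPM in WT 3 dpa and 1037 CPM in WT UI. lama5 and col4a1 were therefore lowest in the same libraries, mutant UI and WT 3 dpa, in which the fibrillar genes of the cluster were highest, with log2 ratios of 0.80 and 1.55 in the mutant and of -1.36 and -0.78 in WT. Others ran as the fibrillar genes did, among them col18a1a at -1.37 in the mutant and 0.52 in WT, and hspg2 at -0.54 in the mutant and 0.82 in WT. nid2a was at 2.38 in WT, and its mutant ratio of -0.44 (-1.22 to 0.35) had an interval that spans 0. lamc1 was at 0.20 in the mutant and 0.10 in WT, with intervals that span 0.

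**Figure D5:**
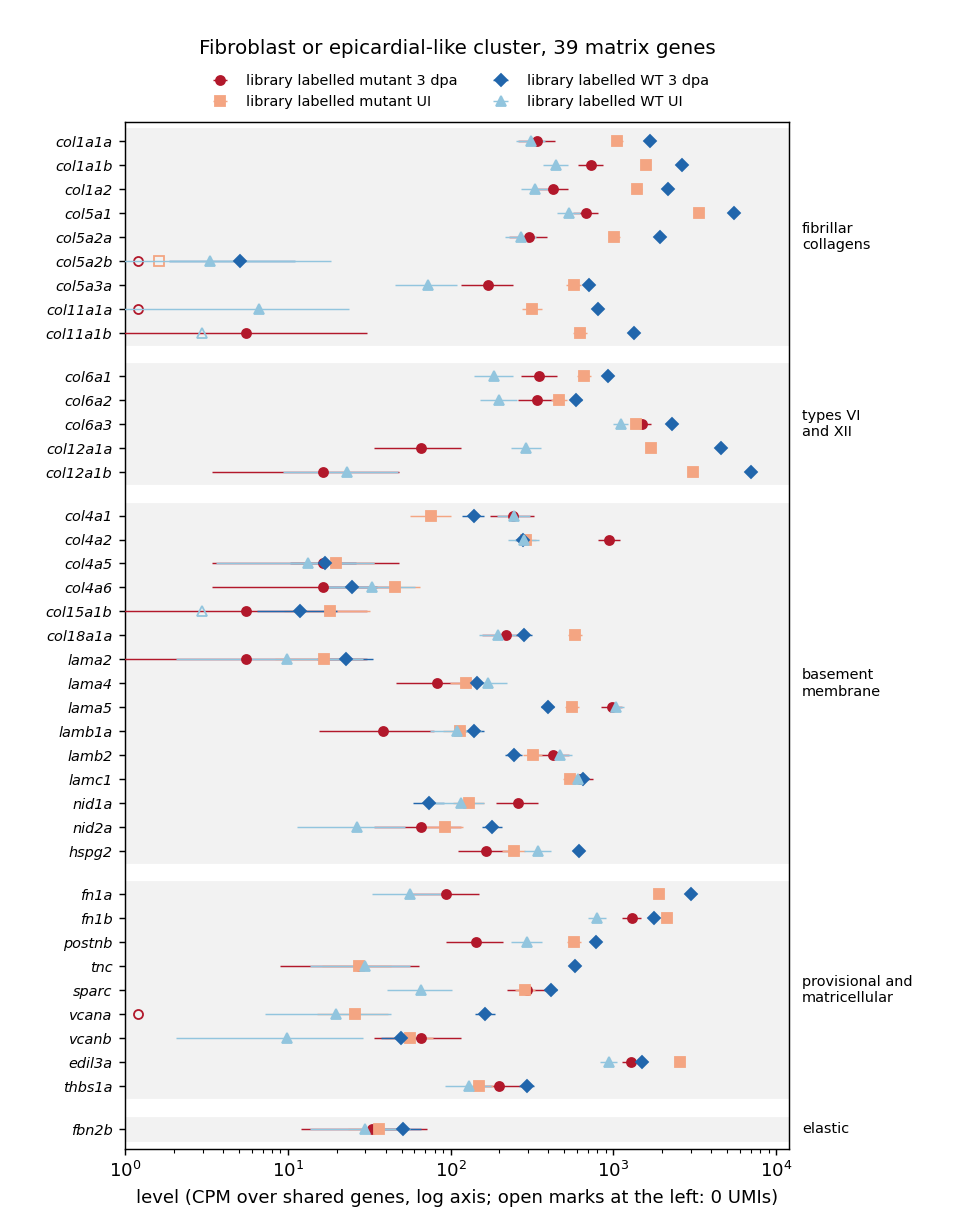
Level of the 39 genes in the fibroblast or epicardial-like cluster, in CPM on a log axis with 95% Poisson intervals; open marks at the left edge stand for 0 UMIs. Fibrillar (apart from col5a2b), type XII and fn1a levels are highest in WT 3 dpa and next in mutant UI, whereas lama5 and col4a1 are higher in mutant 3 dpa and WT UI.

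Each library's clusters of 50 or more nuclei were ranked by the level of each gene. These numbered 10 in mutant 3 dpa and 15 in mutant UI, and 17 in WT 3 dpa and 13 in WT UI. The mural-like cluster had 20 nuclei in mutant 3 dpa and was not ranked there, so the counts below are not like for like between libraries. The fibroblast or epicardial-like cluster ranked first for 25 of the 39 genes in mutant 3 dpa, beside 11.3% of all genes with a UMI, and for 25 in mutant UI, beside 7.86%. It ranked first for 21 in WT 3 dpa, beside 7.07%, and for 24 in WT UI, beside 10.6%. Other clusters gave the highest level of single genes. In WT UI fn1a was highest in a macrophage-like cluster, at 118 CPM, and next in another macrophage-like cluster, at 97.3 CPM. The fibroblast or epicardial-like cluster of WT UI held fn1a at 56.3 CPM (32.8 to 90.1). lama5 was highest in all 4 libraries in an unnamed cluster led by nrg3b, bcam and crb2a, with 1834 CPM in mutant 3 dpa and 1911 CPM in mutant UI, and 1076 CPM in WT 3 dpa and 1063 CPM in WT UI. In WT UI the fibroblast or epicardial-like cluster was within counting error of it, at 1037 CPM (925 to 1158). The unnamed cluster held between 12.3% and 28.6% of the lama5 UMIs of a library. bcam encodes a cell surface receptor for laminin alpha-5. fn1b reached 2385 CPM in the thrombocyte-like cluster of WT 3 dpa, above its 1784 CPM in the fibroblast or epicardial-like cluster of that library, while fn1a was at 138 CPM in that thrombocyte-like cluster. Of the fn1b UMIs of WT 3 dpa, 20.7% lay in the thrombocyte-like cluster and 37.1% in the fibroblast or epicardial-like cluster. Thrombocytes are the clotting cells of fish.

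Vascular clusters held other basement membrane genes. In the mural-like cluster, which had 50 or more nuclei in 3 libraries, col4a2 was at 1182 CPM in mutant UI, and at 1599 CPM in WT 3 dpa and 299 CPM in WT UI. In WT UI the col4a2 level was near that of the fibroblast or epicardial-like cluster, at 282 CPM (225 to 348). col15a1b, the gene of a collagen around capillaries and muscle, was highest in the mural-like cluster. It was at 70.4 CPM in mutant UI, and at 199.8 CPM in WT 3 dpa and 113 CPM in WT UI. The mutant UI value rests on few UMIs, of 51 for this gene in that library. hspg2 was at 580.4 CPM in mutant UI, and at 598 CPM in WT 3 dpa and 754 CPM in WT UI, in an endothelial or endocardial-like cluster that held 174 nuclei of mutant UI, 1670 of WT 3 dpa and 1565 of WT UI. In WT 3 dpa hspg2 was higher in a smaller cluster of the same name with 62 nuclei, at 1351 CPM. In the fibroblast or epicardial-like cluster of that library it was at 615 CPM (571 to 662), near the 598 CPM of the larger endothelial or endocardial-like cluster. The endothelial or endocardial-like nuclei of mutant 3 dpa lay mostly in another cluster of 1666 nuclei, where hspg2 was at 229 CPM.

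Further matrix genes outside the set were counted in 4 lists. Of 29 genes for collagen processing and cross-linking, 9 were higher past the fold in WT 3 dpa, where 2.24% of all genes were. In mutant 3 dpa 5 of the 29 were lower past the fold, where 3.30% of all genes were. serpinh1b, the collagen chaperone, was at 6.77 CPM in mutant 3 dpa and 66.1 CPM in mutant UI, and at 53.0 CPM in WT 3 dpa and 13.6 CPM in WT UI. plod2, a lysyl hydroxylase whose product strengthens cross-links, was at 21.4 CPM in mutant 3 dpa and 96.7 CPM in mutant UI, and at 161 CPM in WT 3 dpa and 35.5 CPM in WT UI. The lysyl oxidase homologue loxl2a was high only in WT 3 dpa, as tnc was, with 10.6 CPM in mutant 3 dpa and 6.97 CPM in mutant UI, and 95.7 CPM in WT 3 dpa and 14.4 CPM in WT UI. loxl2b had a log2 ratio of -2.03 in the mutant, and p3h2, a prolyl hydroxylase, one of 1.95 in WT.

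For the next 3 lists the shares of all genes were again 2.24% higher and 0.489% lower in WT 3 dpa, and 3.30% lower in mutant 3 dpa. Of 33 other collagen genes, 3 were higher past the fold in WT 3 dpa (col27a1b, col6a4a and col21a1, with log2 ratios of 1.52, 1.12 and 1.04). In mutant 3 dpa 1 of the 33 was lower (col27a1b, -1.21), near the share of all genes. Of 50 proteoglycan and elastic fibre genes, 6 were higher and 1 lower in WT 3 dpa, led by thbs2b and thbs1b, the genes of further thrombospondins (thbs1b is also 1 of the thrombocyte markers), at log2 ratios of 1.82 and 1.78, and by the hyaluronan synthase gene has2 at 1.39. In mutant 3 dpa 4 of these were lower, led by mfap4, ltbp1 and has1 at -1.48, -1.30 and -1.07. Of 33 matrix receptor genes, 3 were higher in WT 3 dpa (the collagen receptor ddr2a and the integrin subunits itgb3b and itga4) and 3 were lower in mutant 3 dpa (sdc4, itga4 and ddr1). The medians of these 4 lists lay between -0.47 and -0.01 in the mutant and between 0.26 and 0.62 in WT, beside fibrillar medians of -2.03 in the mutant and 2.87 in WT.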

How the data were processed

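The authors deposited raw UMI counts per gene and barcode, 1 matrix per group, made with Cell Ranger 7.0.0 per the file headers; the submitters' processing notes also name R 4.2.0, Seurat 4.3.0 and the genome build GRCz11. Nuclei came from frozen hearts and were sequenced from the 3′ end of RNA with 10x Chromium reagents, per the labels' protocols. Annotation, intron counting and cell calling were not given in the sources used here. Total counts kept per library were 11412089 (mutant 3 dpa), 12387006 (mutant UI), 18529543 (WT 3 dpa) and 16242931 (WT UI).

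All tables held 25419 gene identifiers, 25395 of them under 1 symbol, and identifiers of 1 symbol were summed. UMIs on the shared symbols made up 90.7% and 89.2% of those kept in mutant 3 dpa and mutant UI, and over 99.9% in both WT libraries. In mutant UI 9932 of 35484 barcodes passed the filters. Doublets were left in, and removing the 6% highest scrublet scores was an alternative. CPM was taken over shared genes, and log2 ratios used CPM + 10. Sums have exact Poisson intervals and shares Clopper-Pearson intervals; since PCR copies are collapsed by UMI, these cover counting of molecules only. Clustering used scanpy 1.11.5 and leidenalg 0.10.2 (2000 variable genes, 30 components, 15 neighbours, resolution 1). The clusters were named where 3 or more listed markers were raised by 1.5 log2 units over the cluster median, a size chosen after the files were seen, as were the levels of single genes by cluster. edgeR 4.0.16 gave TMM factors. The fold rule and intervals were tested on simulated Poisson counts, the model that the intervals assume. That simulation held no variation between hearts and cannot speak to it. All 39 genes were named, with those of most UMIs, those past the fold in both genotypes and duplicated pairs in full. The genes and lists were chosen with earlier results of these data known. Names of neighbouring genes come from the RefSeq table of GRCz12tu; no coordinates are given.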

Additional observations from a re-analysis of the deposited data

Results flagged for a closer look

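16 genes were past the fold between 3 dpa and UI in both genotypes and in opposite directions, all of them higher in WT 3 dpa and lower in mutant 3 dpa, as were 0.893% of all genes. Each group is 1 library, so the difference between genotypes was not tested. Values are the mutant log2 ratio minus the WT log2 ratio, 3 dpa over UI by label in each. Among the fibrillar collagens it was -5.99 for col1a1a, -6.32 for col1a1b, -5.81 for col1a2, -5.57 for col5a1, -3.76 for col5a2a, -4.06 for col5a3a, -4.43 for col11a1a and -5.22 for col11a1b. Among the collagen VI and XII genes it was -2.68 for col6a1, -2.67 for col6a3, -6.26 for col12a1a and -8.49 for col12a1b. Among the provisional matrix genes it was -8.1 for fn1a, -4.59 for fn1b, -4.94 for postnb and -3.76 for edil3a. No basement membrane gene was past the fold in opposite directions. cited4a, the gene of the mutant, also ran in opposite directions, with 370 CPM in mutant 3 dpa and 32.6 CPM in mutant UI, and 53.7 CPM in WT 3 dpa and 153 CPM in WT UI.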

How the results depend on the processing

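Each group is 1 library, so no error between hearts is known, and counting intervals understate the uncertainty. No paired analysis was possible because there is 1 matrix per group, and no replicate could be left out for the same reason. Over all alternatives, members higher past the fold in WT 3 dpa than in WT UI numbered 21 to 28 (23 as reported), and members lower in mutant 3 dpa than in mutant UI 15 to 22 (18). Between genotypes, 21 to 30 were lower in the mutant at 3 dpa (25) and 14 to 24 higher in UI (16). In tbx18 or tcf21 nuclei 20 to 27 were higher in WT (24) and 16 to 25 lower in the mutant (21). The count higher in mutant 3 dpa than in WT 3 dpa (1) was 0 with CPM over each library's own table. The count lower in mutant UI than in WT UI (1) was 0 at 1000 or more UMIs and with every barcode, and 2 under TMM, a pseudocount of 1 and a fold of 0.58. In tbx18 or tcf21 nuclei the WT count lower (0) was 1 at 1000 or more UMIs, under TMM, with a pseudocount of 1 and in the fibroblast or epicardial-like cluster, and 2 with doublets removed, a fold of 0.58 or 2 or more marker UMIs. The mutant count higher there (1) was 0 at 1000 or more UMIs and with other markers allowed, 2 with a pseudocount of 1 and in the cluster, 3 with 2 or more marker UMIs and 4 at a fold of 0.58. The 1 gene that reversed was sparc in the mutant, with a log2 ratio of -1.32 in tbx18 or tcf21 nuclei and 0.0457 in the cluster; the cause was not tested. TMM shifted the median log2 ratio of all genes by 0.05 in the mutant and by -0.09 in WT, and genes at high levels by up to 0.41 in the mutant and -0.54 in WT. With it 5 genes in the mutant and 4 in WT changed sign, 0 of them past the fold.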

Other observations

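hapln1a and hapln1b encode link proteins that tie versican to hyaluronan, and each lies beside a versican gene in the assembly GRCz12tu. hapln1a held 53.7% (49.8 to 57.5) of the UMIs of the pair in mutant 3 dpa and 51.5% (47.3 to 55.8) in mutant UI, and 15.2% (13.3 to 17.3) in WT 3 dpa and 9.05% (7.23 to 11.2) in WT UI. The balance of the link protein copies thus split by genotype, whereas that of the versican copies did not. hapln1a was at 34.5 CPM in mutant 3 dpa and 25.9 CPM in mutant UI, and at 10.2 CPM in WT 3 dpa and 4.87 CPM in WT UI. Genotype and gene table cannot be told apart in these values.

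fn1a in csf1ra nuclei was at 14.5 CPM in mutant 3 dpa and 442 CPM in mutant UI, and at 486 CPM in WT 3 dpa and 67.9 CPM in WT UI, and in nuclei with no marker it was at 4.98 CPM in mutant 3 dpa and 217 CPM in mutant UI, and at 236 CPM in WT 3 dpa and 8.77 CPM in WT UI. The mutant 3 dpa value of the csf1ra nuclei rests on 3 UMIs. fn1b in csf1ra nuclei was at 106 CPM in mutant 3 dpa and 235 CPM in mutant UI, and at 259.8 CPM in WT 3 dpa and 36.8 CPM in WT UI. In nuclei with no marker fn1b was at 61.2 CPM in mutant 3 dpa and 252 CPM in mutant UI, and at 255 CPM in WT 3 dpa and 27.4 CPM in WT UI. tnc in csf1ra nuclei of WT 3 dpa was at 128 CPM, against 44.8 CPM in nuclei with no marker. In the clusters of WT 3 dpa tnc was highest in the fibroblast or epicardial-like cluster, at 580.4 CPM. The mural-like cluster came next, at 39.1 CPM. Each macrophage-like cluster was thus at or below that level, and under the 128 CPM of the csf1ra nuclei. No cluster matches the nuclei with no marker, so the difference from them was not tested by cluster. In the macrophage-like cluster led by moxd1 and csf1ra, fn1a was at 41.3 CPM in mutant 3 dpa and 418 CPM in mutant UI, and at 276 CPM in WT 3 dpa and 97.3 CPM in WT UI.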
